A study of Drosophila ananassae with 22 samples.

Results

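Promoter activity in Drosophila ananassae embryos of 16-19 hr after egg laying was compared with that in embryos of 13-16 hr, on either side of 16 hr, when the organs of the larva are completing their differentiation. All embryos came from the reference genome strain In(3R)A, were not treated, and were collected whole and pooled from population cages, so every tissue of the embryo contributes. The later window holds the collections of 16-17, 17-18 and 18-19 hr, and the earlier window those of 13-14, 14-15 and 15-16 hr, with 1 library per hour and 6 libraries in all, of the 22 in the series. The 3 hours of a window stand in for replicates. P-values therefore measure a difference between windows against the spread within them, which holds both the measurement error and the change from hour to hour. RAMPAGE (RNA Annotation and Mapping of Promoters for the Analysis of Gene Expression) sequences cDNAs extending to the 5′ cap of their transcript, and the read starts are grouped into transcription start site clusters (TSCs), each a proxy for a promoter. Members were the features with at least 10 RPM, the reads of a feature scaled to those of its library, in any of the 6 libraries: 7975 of 27105 TSCs, and 5721 of 8758 genes listed under D. melanogaster identifiers. Of the 7975 TSCs, 5919 reached 10 RPM in both windows, 437 only at 16-19 hr and 1619 only at 13-16 hr, and a TSC of the last pair of classes can be called in 1 direction only. TSCs that share a position under different genes made up 176 of the 7975, which stand for 7886 positions.

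In the last part of fly embryogenesis, cells that have stopped dividing take on their final functions. Muscles begin to contract, neurons form synapses, the epidermis secretes the cuticle of the larva, and the tracheae fill with air. Many of the genes for such structural products are copied at very high levels for a short time and lie side by side in the genome as families, and a gene may also use separate promoters at separate times.

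The libraries had 3275604 to 12409410 reads in TSCs at 16-19 hr, against 1358460 to 7021159 at 13-16 hr. No tissue marker could be read out, because none of the identifiers could be paired with a gene name, so the stage was not checked against tissue genes and TSCs are described by position on the FlyBase r1.3 scaffolds. A set of 58 TSCs had at least 100 RPM at 0-3 hr and a mean over 20 times lower at 6-13 hr. It took 0.0220% to 0.0377% of the reads at 16-19 hr and 0.0386% to 0.0569% at 13-16 hr, against 2.14% to 4.41% at 0-3 hr. A low level at 6-13 hr chose these TSCs, so their low shares in later hours are largely set by that choice. Whether the collections held eggs without development was not tested. The summed share of genes in the gene table was 59.1% to 63.3% at 16-19 hr and 69.7% to 79.3% at 13-16 hr.

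Reads became concentrated in a small number of promoters. The 10 most abundant TSCs of each library took 25.8%, 31.9% and 28.3% of the reads at 16-17, 17-18 and 18-19 hr, against 12.4%, 18.2% and 17.7% at 13-14, 14-15 and 15-16 hr, so the windows did not overlap. The 100 most abundant took 50.6% to 57.0% at 16-19 hr, against 32.6% to 45.8% at 13-16 hr. The number of TSCs that together held 50% of the reads was 90, 54 and 95 in the later window, against 338, 180 and 140 in the earlier one. A single TSC on scaffold_13337, at 20810416-20810674 on the plus strand, took 9.76%, 12.7% and 11.9% of all reads at 16-17, 17-18 and 18-19 hr, against 1.50%, 3.40% and 4.11% at 13-14, 14-15 and 15-16 hr. Counting error was small beside these differences, with a 95% Wilson interval of 3.37% to 3.43% in the least deep of the 6 libraries. The intervals cover counting error only, since PCR copies are not independent molecules.

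**Figure D1:**
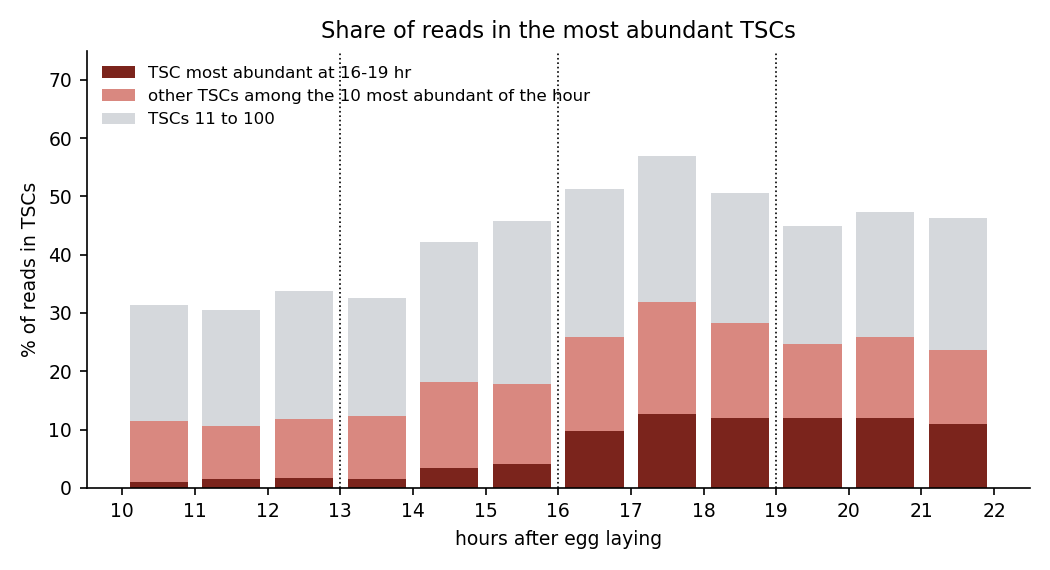
Share of the reads in TSCs (y axis, percent) for each 1 hr library from 10 to 22 hr after egg laying (x axis), divided into the TSC most abundant at 16-19 hr (dark), the other TSCs among the 10 most abundant of that hour (light red) and the next TSCs up to the 100 most abundant (grey). Dotted lines mark 13, 16 and 19 hr. The dark part is 9.76% to 12.7% in the libraries of 16-19 hr and 1.50% to 4.11% in those of 13-16 hr.

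Across the windows, 238 TSCs were higher and 544 were lower at 16-19 hr than at 13-16 hr (limma on log2(RPM + 1), adjusted p under 0.05), which is 2.98% and 6.82% of the 7975 tested. RPM values are shares of a library, and the median TSC had a log2 difference of -0.49. When the libraries were rescaled by the trimmed mean of M values (TMM), which sets the bulk of TSCs level, the median was -0.02, and 380 TSCs (4.76%) were higher and 233 (2.92%) lower. The share of higher ones among the calls was thus 62.0% with TMM and 30.4% with RPM. The direction of a small change depends on the scaling, and TSCs called in the same direction under both, 216 higher and 233 lower, are described further. Among these, 63 of the higher ones had passed the filter only at 16-19 hr and 128 of the lower ones only at 13-16 hr.

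The counts depended on single hours. Without the 13-14, 14-15, 15-16, 16-17, 17-18 or 18-19 hr library in turn, 81, 81, 267, 340, 46 and 99 TSCs were higher and 121, 195, 723, 798, 126 and 284 lower by limma on RPM. With TMM no TSC passed the threshold without the 14-15 hr library, while 1013 were higher and 766 lower at an unadjusted p under 0.05. None passed without the 17-18 hr library either, where these unadjusted numbers were 854 and 639. The TMM counts were 34 and 30 higher and 28 and 33 lower without the 13-14 and the 18-19 hr libraries.

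In the gene table, 117 genes (2.05% of 5721) were higher and 336 (5.87%) lower at 16-19 hr by limma on RPM. With TMM 179 genes (3.13%) were higher and 132 (2.31%) lower, and 103 and 132 were called the same way under both scalings. The median gene had a log2 difference of -0.47 with RPM and -0.02 with TMM. Without the 13-14, 14-15, 16-17, 17-18 or 18-19 hr library, the higher genes on RPM numbered 35, 39, 186, 24 and 52, and the lower ones 67, 91, 538, 84 and 193. With TMM and without these libraries, 3, 0, 280, 2 and 19 genes were higher and 7, 2, 213, 5 and 28 were lower, and the unadjusted count of higher genes without the 14-15 hr library was 661.

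Most of the lower TSCs, 136 of 233, had their highest library of the series at 13-16 hr, with 54 at 10-13 hr and 43 before 10 hr. Among all tested TSCs 931 of 7975 (11.7%) peaked at 13-16 hr, and a high level in that window is part of how the lower TSCs were chosen. The median level of the lower TSCs, as a percentage of each TSC's own maximum over the 21 libraries analysed, was 19.3% at 10-11 hr, 45.5% at 12-13 hr, 78.3% at 13-14 hr, 62.4% at 14-15 hr and 31.9% at 15-16 hr. It was then 8.14% at 16-17 hr, 2.57% at 17-18 hr and 2.20% at 18-19 hr, and stayed between 1.73% and 2.47% to the end of the series. Together these 233 TSCs took 0.990%, 0.517% and 0.50% of the reads at 16-17, 17-18 and 18-19 hr, against 10.5%, 12.2% and 6.32% at 13-14, 14-15 and 15-16 hr. Of the 233, 116 fell by more than 8-fold on the log2(RPM + 1) scale, and 92 of the 116 had their highest library of the series at 13-16 hr.

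The higher TSCs followed a different course. Their median level was 5.82% of the own maximum at 10-11 hr, lay between 10.0% and 17.2% in every hour from 11 to 16 hr, and was 46.3% at 16-17 hr, 66.1% at 17-18 hr and 85.9% at 18-19 hr. It was 67.8%, 60.8% and 51.2% in the 3 libraries of 19-22 hr. The 216 TSCs took 4.17%, 6.91% and 7.62% of the reads at 16-17, 17-18 and 18-19 hr, against 1.23%, 1.22% and 1.70% at 13-14, 14-15 and 15-16 hr. The highest library of the series lay at 16-19 hr for 117 of them and at 19-22 hr for 90, against 578 and 1159 of all 7975 tested TSCs. Both groups were chosen for a difference between the windows, and levels are relative to a maximum that can lie in the window where a TSC is high. The contrast at 16 hr is therefore set by that choice, as are in part the low percentages before 13 hr and after 19 hr, and the courses are a description only.

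**Figure D2:**
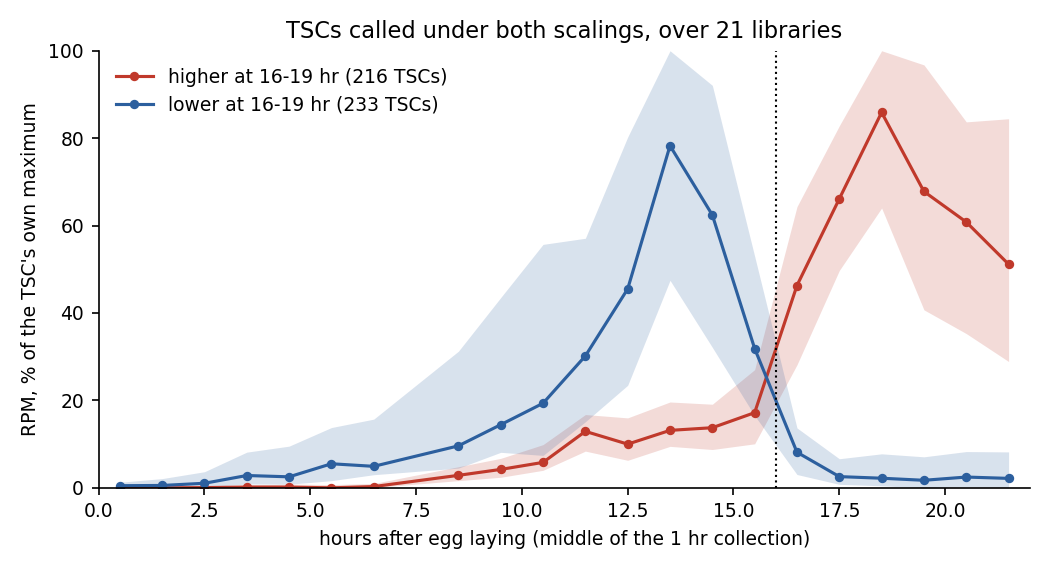
Level of the TSCs called in the same direction under RPM and TMM scaling, as a percentage of each TSC's own maximum (y axis), in 21 libraries by hours after egg laying (x axis). Points and lines are medians and bands the interquartile range, for 216 TSCs higher (red) and 233 TSCs lower (blue) at 16-19 hr. The dotted line marks 16 hr, where the blue median drops to 8.14% in the next library while the red one reaches 46.3%.

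These groups were followed in 6 libraries that had no part in the calls, 19-22 hr set against 10-13 hr, a comparison added after the data were seen. These hours adjoin the windows in the same series, so a direction can carry over. Of the TSCs followed, 63 of the higher and 128 of the lower ones had passed the filter only in the window where they are high. The counts are therefore a description, not independent support. There 15.8% of 9175 TSCs were higher and 33.9% lower at 19-22 hr (limma on RPM, adjusted p under 0.05). Of the 216 TSCs higher at 16-19 hr, 204 were tested and 167 were higher at 19-22 hr than at 10-13 hr, with 3 lower. Of the 233 lower ones, 213 were tested and 178 were lower, with none higher. With TMM the numbers were 175 higher and 2 lower, and 163 lower and 1 higher. Of all TSCs tested at 13-19 hr, 7661 were tested here too, with 1598 higher and 1352 lower with TMM. On RPM 1189 of them were higher and 2608 lower.

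Adjacent hours differed within the windows as well as between them. Over the 1685 TSCs with at least 100 reads in each of the 6 libraries, the median absolute step between adjacent hours, about the median TSC, was 0.31, 0.28, 0.28, 0.33 and 0.25 on the log2 scale for the 5 steps from 13-14 to 18-19 hr. The standard deviation from counting alone was 0.10, 0.11, 0.07, 0.08 and 0.09, which is another measure of spread than a median absolute step. It leaves out the error between libraries, and with 1 library per hour that error cannot be told apart from change. The step into 16-17 hr was not the largest of them. Drops of more than 4-fold within 1 hr were seen for 269, 86, 165, 190 and 62 of all tested TSCs at these steps, and rises of more than 4-fold for 79, 131, 56, 42 and 111. When hour was fitted as a straight line over the 6 libraries, 476 TSCs increased and 1558 decreased with RPM, and 808 increased and 469 decreased with TMM.

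The promoters that fell furthest had lost most of their reads by 18-19 hr. The TSC FBgn0089885_01, on scaffold_13266 at 5560602-5560827, had 417, 205 and 61.3 RPM at 16-17, 17-18 and 18-19 hr, against 25734, 33152 and 17296 RPM at 13-14, 14-15 and 15-16 hr. Its log2 change was -7.13 ± 0.61 (SE, limma adjusted p = 0.00054, 3 libraries against 3), the largest fall under the naming rule. It was already among the highest TSCs at 10-13 hr, with a mean of 22541 RPM, and had a mean of 27.9 RPM at 19-22 hr. The TSC at scaffold_13340:11078799-11078969 started from a lower level, with 336, 146 and 59.4 RPM in the later window, against 12635, 20571 and 6456 RPM in the earlier one and a mean of 3304 RPM at 10-13 hr. Its log2 change was -6.37 ± 0.61 (limma adjusted p = 0.00078).

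Other steep falls came from narrow promoters. FBgn0087344_02, a TSC of 20 bp on scaffold_13337 at 10353730-10353749, had 15.3, 3.05 and 3.93 RPM at 16-17, 17-18 and 18-19 hr, against 776, 1230 and 334 RPM at 13-14, 14-15 and 15-16 hr (log2 change -6.64 ± 0.58, limma adjusted p = 0.00054). A TSC of 29 bp at scaffold_13047:941891-941919 left its peak earlier, with 7.74, 2.14 and 2.92 RPM, against 1730, 463 and 49.6 RPM in the earlier window (log2 change -6.18 ± 0.99, limma adjusted p = 0.0067). A TSC of 45 bp at scaffold_13335:795655-795699 had 56.2, 11.3 and 7.61 RPM at 16-19 hr, against 2081, 2621 and 621 RPM at 13-16 hr. For all 5 the windows were far apart, and each stayed called on RPM without any single library. With TMM and without the 14-15 or the 17-18 hr library none of the 5 was called, with limma adjusted p up to 0.11. Of the 6 comparisons with TMM that leave out 1 library, the TSC of 29 bp was called in 2 and each of the others in 4.

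**Figure D3:**
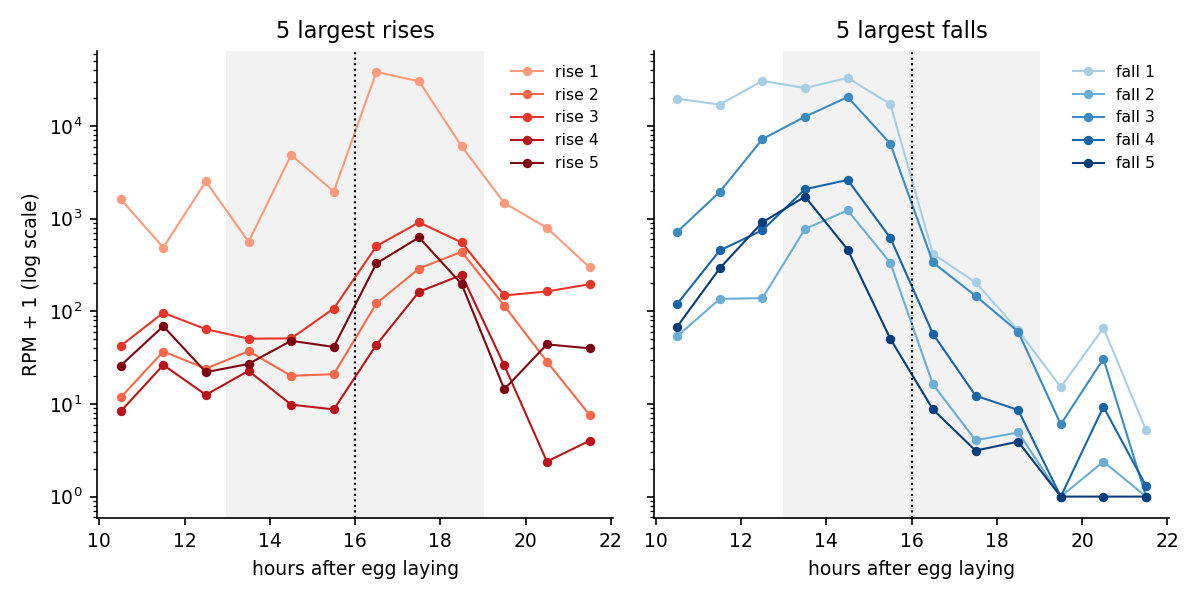
RPM + 1 on a log scale (y axis) from 10 to 22 hr after egg laying (x axis) for the TSCs with the largest rise (left, 5 TSCs) and the largest fall (right, 5 TSCs) at 16-19 hr, each numbered by the size of its log2 change. The grey band covers 13-19 hr and the dotted line marks 16 hr. The falls reach 2.92 to 61.3 RPM at 18-19 hr, and every one of the rises is lower at 19-20 hr than at 18-19 hr.

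The largest rise was that of FBgn0101166_01, on scaffold_13337 at 10363630-10363765, with 38389, 30496 and 6022 RPM at 16-17, 17-18 and 18-19 hr, against 562, 4878 and 1962 RPM at 13-14, 14-15 and 15-16 hr (log2 change 3.45 ± 0.83, limma adjusted p = 0.031). The lowest later value, at 18-19 hr, lay close to the highest earlier one, and the call was lost with TMM (adjusted p = 0.057), with edgeR, and on RPM without the 13-14, 15-16 or 17-18 hr library (adjusted p up to 0.12). FBgn0094606_02, at scaffold_13340:1659926-1660097, had 505, 913 and 553 RPM, against 49.7, 50.1 and 106 RPM in the earlier window (log2 change 3.28 ± 0.39, limma adjusted p = 0.0019). A TSC at scaffold_13337:4056059-4056213 had 328, 628 and 196 RPM, against 26.1, 47.1 and 40.3 RPM (log2 change 3.19 ± 0.43, limma adjusted p = 0.0035). These levels did not last: the mean RPM at 19-22 hr was 858 for the first, 169 for the second and 31.8 for the third. On RPM the second and the third stayed called without any single library. With TMM they were called in 4 and 3 of the 6 comparisons that leave out 1 library (limma adjusted p up to 0.070). The remaining pair of the 5 largest rises are not attributed to a gene and are given with their class.

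Rises were smaller than falls. On RPM, 9 of the 7975 TSCs had a log2 difference above 3 and 150 had one below -3, and with TMM the numbers were 33 and 115. In the gene table the corresponding numbers were 6 and 105 on RPM, and 21 and 77 with TMM. The 2 genes with the largest rise by the naming rule were FBgn0038130 and FBgn0037128. FBgn0038130 had 511, 926 and 560 RPM at 16-17, 17-18 and 18-19 hr, against 52.8, 51.0 and 107 RPM at 13-14, 14-15 and 15-16 hr (log2 change 3.26 ± 0.37, limma adjusted p = 0.0016). FBgn0037128 had 323, 621 and 193 RPM, against 25.5, 46.0 and 39.3 RPM (log2 change 3.20 ± 0.42, limma adjusted p = 0.0033). These rows equal at every time point the summed reads of the TSCs of a gene, whose main TSCs are those at scaffold_13340:1659926-1660097 and scaffold_13337:4056059-4056213, so they largely repeat those values and add no support. The 2 largest falls were those of FBgn0036593, with 15.6, 3.02 and 3.88 RPM, against 760, 1205 and 328 RPM (log2 change -6.61 ± 0.58, limma adjusted p = 0.00046), and of FBgn0030340, with 55.5, 11.2 and 7.51 RPM, against 2038, 2560 and 606 RPM (log2 change -6.35 ± 0.70, limma adjusted p = 0.0014). Their main TSCs are FBgn0087344_02 and the one at scaffold_13335:795655-795699, so these falls too largely repeat values already given.

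The most abundant promoters included TSCs called in both directions. Of 225 TSC positions with at least 1000 RPM in any of the 6 libraries, 34 were higher and 31 lower on RPM, 23 and 19 of them also with TMM, against 2.98% higher and 6.82% lower of all TSCs tested on RPM. Abundance in these libraries chose the 225, so nothing is read from that difference. The TSC that took the largest share of reads, at scaffold_13337:20810416-20810674, had 97592, 126617 and 119127 RPM at 16-17, 17-18 and 18-19 hr, against 14967, 33987 and 41131 RPM at 13-14, 14-15 and 15-16 hr. Its log2 change was 2.05 ± 0.53 (limma adjusted p = 0.038). It climbed through the earlier window, and the call was lost with TMM (adjusted p = 0.068), with edgeR, with a pseudocount of 0.1 RPM or another filter, and on RPM without the 13-14, 14-15, 17-18 or 18-19 hr library (adjusted p up to 0.12). Its level then held, with a mean of 116312 RPM at 19-22 hr. The second most abundant, at scaffold_13266:874126-874415, had 19748, 33158 and 42253 RPM, against 7172, 9302 and 13042 RPM (log2 change 1.66 ± 0.46, limma adjusted p = 0.047, and 0.058 with TMM). On RPM its call too was lost without any 1 of the same 4 libraries, with adjusted p up to 0.14. By contrast, a TSC at scaffold_13337:7171478-7171983 was among the 5 highest of each window and had 21449, 21434 and 16828 RPM, against 17805, 25583 and 16726 RPM, a log2 difference of 0.01 ± 0.42 (95% interval -0.92 to 0.93).

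Some abundant promoters peaked across the border itself. Of the 225 positions, 15 had their highest of the 6 values at 15-16 or 16-17 hr and less than 25% of it at both 13-14 and 18-19 hr. They were chosen for this shape after their values were seen, so the following is a description. Together they took 0.798%, 3.27%, 6.63%, 9.65%, 6.22% and 1.39% of the reads from 13-14 to 18-19 hr, and 0.266% to 0.412% at 19-22 hr. Of the 15, 14 were not called on RPM, against 160 of the 225. Of all 7975 tested TSCs, 782 were called. Low values at 13-14 and 18-19 hr are part of how the 15 were chosen and bear on the calls, so nothing is read from this count. The TSC at scaffold_13337:20803947-20804223 had 12819, 6948 and 2647 RPM at 16-17, 17-18 and 18-19 hr, against 1469, 1446 and 11483 RPM at 13-14, 14-15 and 15-16 hr. One at scaffold_13337:3218217-3218300 had 8860, 5115 and 478 RPM, against 871, 2127 and 8780 RPM, with a log2 difference of 0.14 ± 1.04. Another, at scaffold_13266:8570195-8570348, peaked earlier, with 1234, 230 and 25.4 RPM, against 460, 7495 and 10742 RPM.

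Some abundant TSCs, with or without this shape, lay side by side. When positions of at least 1000 RPM less than 25000 bp apart were joined, 2 groups held at least 4 genes, both on scaffold_13337, and they were singled out after their values were seen. The longer one, at 10313165-10372444, held 13 TSCs of 13 genes, 7 on the plus and 6 on the minus strand. Its summed share of reads was 8.74%, 7.84% and 3.33% at 16-17, 17-18 and 18-19 hr, against 0.637%, 2.96% and 4.89% at 13-14, 14-15 and 15-16 hr, and it was 0.568% to 0.748% at 19-22 hr. Of the 13 TSCs, 12 had their highest library of the whole series between 15 and 19 hr, and FBgn0087344_02 had it at 14-15 hr. All 13 thus had it between 13 and 19 hr. Among all 7975 tested TSCs, 931 had it at 13-16 hr and 578 at 16-19 hr, and the number for 15 to 19 hr was not counted. A level of at least 1000 RPM in a library of 13-19 hr chose the 13, so a peak in these hours is in part set by that choice.

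Within this group, neighbours moved in opposite directions. The 2 called falls, FBgn0087344_02 and the TSC at 10355611-10355734, lie about 2 kb apart on the plus strand, and the second had 62.0, 19.8 and 7.23 RPM at 16-19 hr, against 384, 1053 and 1126 RPM at 13-16 hr (log2 change -5.12, limma adjusted p = 0.0027). The largest rise, FBgn0101166_01, begins about 8 kb farther along on the minus strand. A called rise at 10340296-10340331, a TSC of 36 bp, had 1226, 1757 and 1482 RPM, against 143, 243 and 235 RPM (log2 change 2.86, limma adjusted p = 0.0019, 0.013 with TMM). The third called rise, at 10365316-10365597, had 6146, 9163 and 3989 RPM, against 556, 1177 and 3024 RPM (log2 change 2.27, limma adjusted p = 0.037, 0.061 with TMM). On RPM it was lost without the 13-14, 14-15 or 17-18 hr library. The other 8 TSCs were not called.

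**Figure D4:**
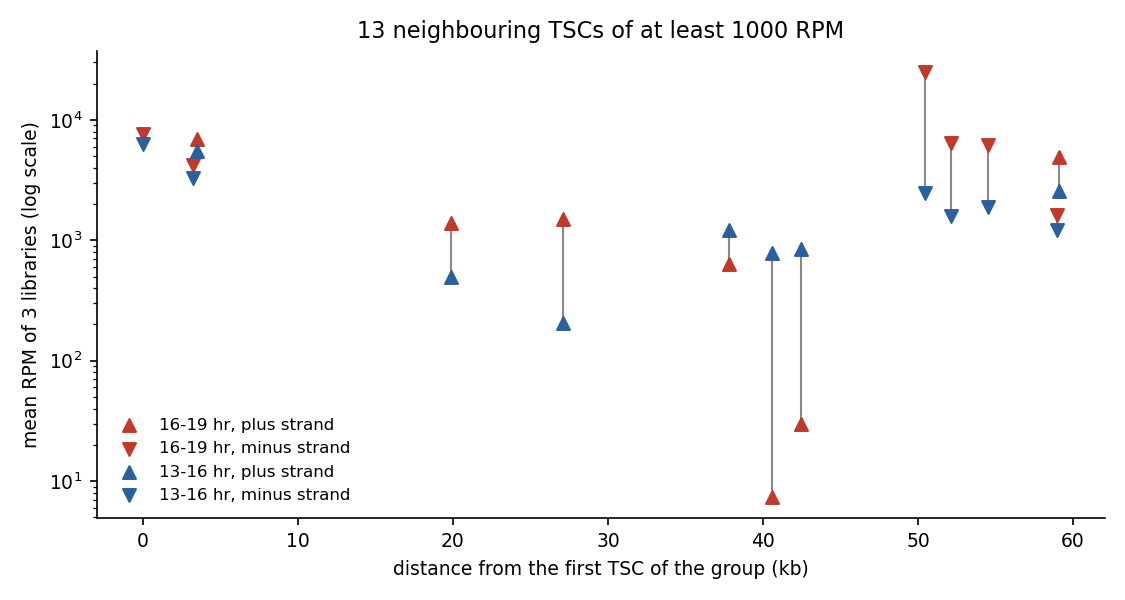
Mean RPM of the 3 libraries on a log scale (y axis) for 13 neighbouring TSCs, by distance in kb from the first of them (x axis), at 16-19 hr (red) and 13-16 hr (blue). Triangles point up for the plus strand and down for the minus strand, and grey lines join the windows of a TSC. The TSCs were chosen for at least 1000 RPM in any of the 6 libraries, and the group after its values were seen. In 10 of the 13 TSCs the log2 difference is positive, and the pair near 41 to 42 kb is far lower at 16-19 hr.

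The shorter group, at 20785258-20810674, held 7 TSCs of 7 genes, among them the most abundant TSC of the later embryo. It took 14.0%, 16.3% and 14.7% of the reads at 16-17, 17-18 and 18-19 hr, against 2.24%, 4.76% and 7.40% at 13-14, 14-15 and 15-16 hr, and kept 13.7% to 15.2% at 19-22 hr. All 7 had a positive log2 difference, against a median of -0.49 over all tested TSCs, but abundance in these libraries chose them, so nothing is read from this. On RPM 2 were called, the most abundant TSC and one at 20796972-20796999. The TSC at 20796972-20796999 had 1290, 1275 and 1003 RPM, against 308, 395 and 752 RPM (log2 change 1.39, limma adjusted p = 0.045), and was lost in 5 of the 6 comparisons that leave out 1 library. One member, at 20807523-20807665, had 14137, 14516 and 20189 RPM, against 3239, 6593 and 11608 RPM (limma adjusted p = 0.096).

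TSCs attributed to no gene changed too. Of 785 tested TSCs attributed to no gene, 18 were higher and 60 lower on RPM, which is 2.29% and 7.64%, against 3.06% and 6.73% of 7190 attributed ones. Called under both scalings were 18 and 27 of the unattributed and 198 and 206 of the attributed TSCs. The unattributed TSCs were of lower level, with a median over the 6 libraries of 15.3 RPM, against 23.9 RPM for the attributed ones.

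The 5 largest unattributed rises came from 2 places. On scaffold_13337, RAMPAGEpeak_015607, at 5780217-5780237 on the plus strand, had 121, 289 and 439 RPM at 16-17, 17-18 and 18-19 hr, against 36.2, 19.1 and 20.0 RPM at 13-14, 14-15 and 15-16 hr (log2 change 3.32 ± 0.47, limma adjusted p = 0.0037). RAMPAGEpeak_016978, at 5784698-5784751 on the minus strand, had 73.0, 97.1 and 84.5 RPM, against 11.3, 14.7 and 9.67 RPM, and RAMPAGEpeak_017318, at 5785826-5785851, had 72.4, 161 and 306 RPM, against 37.6, 19.1 and 18.7 RPM. The nearest tested TSC of a gene to this minus-strand pair lay 2557 bp away on the same strand and was itself called higher, with a mean of 38.4 RPM at 16-19 hr and 15.3 RPM at 13-16 hr. On scaffold_12911, RAMPAGEpeak_013389 at 2383931-2383971 had 42.5, 162 and 246 RPM, against 21.8, 8.83 and 7.73 RPM (log2 change 3.27 ± 0.60, limma adjusted p = 0.011). RAMPAGEpeak_013476 at 2380289-2380335 had 124, 383 and 684 RPM, against 65.7, 42.7 and 36.4 RPM, and the nearest tested TSC of a gene was 31267 bp away. In 4 of these 5 TSCs the value increased at each hour of the later window, and in all 5 the mean at 19-22 hr, 1.45 to 91.9 RPM, was below the mean at 16-19 hr. RAMPAGEpeak_013389 and RAMPAGEpeak_017318 were not called on RPM without the 17-18 hr library (adjusted p = 0.057 each), nor RAMPAGEpeak_013476 without the 14-15 or the 17-18 hr library (adjusted p up to 0.065). With TMM each of the 5 was called in 2 or 4 of the 6 comparisons that leave out 1 library (limma adjusted p up to 0.11).

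The largest unattributed fall was that of RAMPAGEpeak_021738, on scaffold_13266 at 3576393-3576465, with 10.6, 4.58 and 4.82 RPM at 16-17, 17-18 and 18-19 hr, against 495, 127 and 32.9 RPM at 13-14, 14-15 and 15-16 hr (log2 change -4.16 ± 0.77, limma adjusted p = 0.011, 0.057 without the 17-18 hr library). RAMPAGEpeak_016607, on scaffold_13337 at 18669456-18669666, was the most abundant of the falls, with 274, 69.3 and 18.4 RPM, against 1170, 1234 and 855 RPM (log2 change -3.90 ± 0.74, limma adjusted p = 0.012). It was not called by edgeR or without the 13-14 or the 17-18 hr library (adjusted p up to 0.064). RAMPAGEpeak_018525, at scaffold_13337:10746014-10746199, had 8.70, 3.05 and 1.40 RPM, against 84.6, 61.8 and 28.0 RPM, and lay 111 bp from a gene's TSC on the opposite strand that was not called. The other 2 had log2 changes of -2.45 and -2.42, the second of them lost with TMM (adjusted p = 0.056), and neither was called on RPM without the 17-18 hr library, nor the second without the 13-14 hr library (adjusted p up to 0.091). With TMM each of the 5 unattributed falls was called in 1 or 2 of the 6 comparisons that leave out 1 library (limma adjusted p up to 0.17).

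The promoters that changed had a lower median width than the rest. Width is set by the authors' peak calls on the whole series and took no part in the comparison of windows. The median width was 51.5 bp for the higher TSCs, 77.0 bp for the lower ones and 105 bp for the rest, and TSCs under 50 bp made up 49.1%, 39.9% and 16.6%. Since width grows with level, TSCs were also divided into 3 equal parts by their mean RPM over the 6 libraries. In the part with the highest levels the medians were 65.5, 102 and 127 bp, in the middle part 39, 53 and 101 bp, and in the lowest part 37, 67 and 87 bp. Peaks were called on the whole series, whereas these levels cover 6 libraries only. Of the rest, 55.7% had their highest library before 10 hr, against 3.24% of the higher and 18.5% of the lower TSCs. Width at equal level over the whole series was not compared. These are descriptions of TSCs, which are not replicates, and width was not tested against how long a TSC is active.

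Start sites of the same gene did not always move together. Of 1775 TSCs in 767 genes with at least 2 tested TSCs, 52 in 30 genes changed differently from the other TSCs of their gene (limma diffSplice, adjusted p under 0.05), which is 2.93% of those tested. In 20 of the 30 genes the log2 differences had both signs, and in 2 genes a TSC was called higher and another lower on RPM. The 30 genes were chosen for unequal changes, and the share with both signs among all 767 genes was not counted. The signs are those on RPM, where the median TSC was at -0.49, against -0.02 with TMM, so they depend on the scaling. The count was 3, 2, 57, 42, 1 and 1 TSCs without the 13-14, 14-15, 15-16, 16-17, 17-18 and 18-19 hr library in turn. Another scaling of the libraries shifts all TSCs of a gene alike, apart from the pseudocount, so it leaves the differences between them the same. It can change the spread within windows that the p-values use. TMM was not run for this test, so whether the calls depend on it was not tested.

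In gene FBgn0097696 on scaffold_12943, on the minus strand, the main TSC at 4436102-4436226 had 1531, 1160 and 1549 RPM at 16-17, 17-18 and 18-19 hr, against 5034, 5538 and 4053 RPM at 13-14, 14-15 and 15-16 hr. Another TSC, 48133 bp upstream at 4484235-4484268, had 40.0, 53.1 and 62.3 RPM, against 13.4, 14.7 and 14.2 RPM. The third, 4121 bp downstream of that one, had 57.4, 65.3 and 61.0 RPM, against 14.0, 21.4 and 16.8 RPM. The change of the main TSC was lower than that of the other TSCs of the gene by 3.57 on the log2 scale (diffSplice adjusted p = 7.3e-06, and 0.00021 to 0.00095 without each library in turn). Within 5000 bp of the upstream TSC lie TSCs of 3 other genes on the same strand, all of them higher at 16-19 hr. The closest has a mean of 79.4 RPM at 16-19 hr and 22.8 RPM at 13-16 hr, and the most abundant 905 and 225 RPM (limma adjusted p = 0.012).

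In gene FBgn0101888 on scaffold_13337, the TSC at 88450-88504 had 1461, 1728 and 1898 RPM at 16-17, 17-18 and 18-19 hr, against 239, 322 and 553 RPM at 13-14, 14-15 and 15-16 hr. It lies 7847 bp downstream of the first TSC, which had 192, 109 and 129 RPM, against 261, 213 and 244 RPM. The downstream TSC thus made up 91.5% of the gene's RPM in tested TSCs at 16-19 hr and 59.0% at 13-16 hr (diffSplice adjusted p = 0.013). The difference was lost without the 13-14, 17-18 or 18-19 hr library, with adjusted p up to 0.19. A TSC of another gene starts 497 bp away on the opposite strand and rose in the same hours, with a mean of 1713 RPM at 16-19 hr and 319 RPM at 13-16 hr (limma adjusted p = 0.0040).

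In a gene on scaffold_12916, the TSC at 8100756-8100835 had 6.77, 7.33 and 6.85 RPM at 16-17, 17-18 and 18-19 hr, against 31.2, 40.5 and 30.9 RPM at 13-14, 14-15 and 15-16 hr, while the first TSC, 9143 bp upstream, had 9.11, 14.0 and 16.5 RPM, against 4.27, 2.21 and 3.54 RPM. The first TSC made up 47.6% of the gene's RPM at 16-19 hr and 7.35% at 13-16 hr, and the downstream one 25.2% and 75.3% (diffSplice adjusted p = 0.045 and 0.026). These are low levels. The first TSC was called in 1 of the 6 comparisons that leave out a library, without the 16-17 hr one (adjusted p up to 0.26 in the others), and the downstream TSC in 3, being lost without the 14-15, 17-18 or 18-19 hr library. On scaffold_13266 a gene singled out after its values were seen had a TSC at 10152881-10152992 with 350, 298 and 253 RPM, against 1687, 1641 and 1151 RPM, whereas its first TSC, 21795 bp upstream, had 156, 255 and 307 RPM, against 160, 255 and 204 RPM. The first made up 38.8% of the gene's RPM at 16-19 hr and 11.6% at 13-16 hr. The difference of the downstream TSC (diffSplice adjusted p = 0.013) was lost without the 14-15, 17-18 or 18-19 hr library, with adjusted p up to 0.19.

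**Figure D5:**
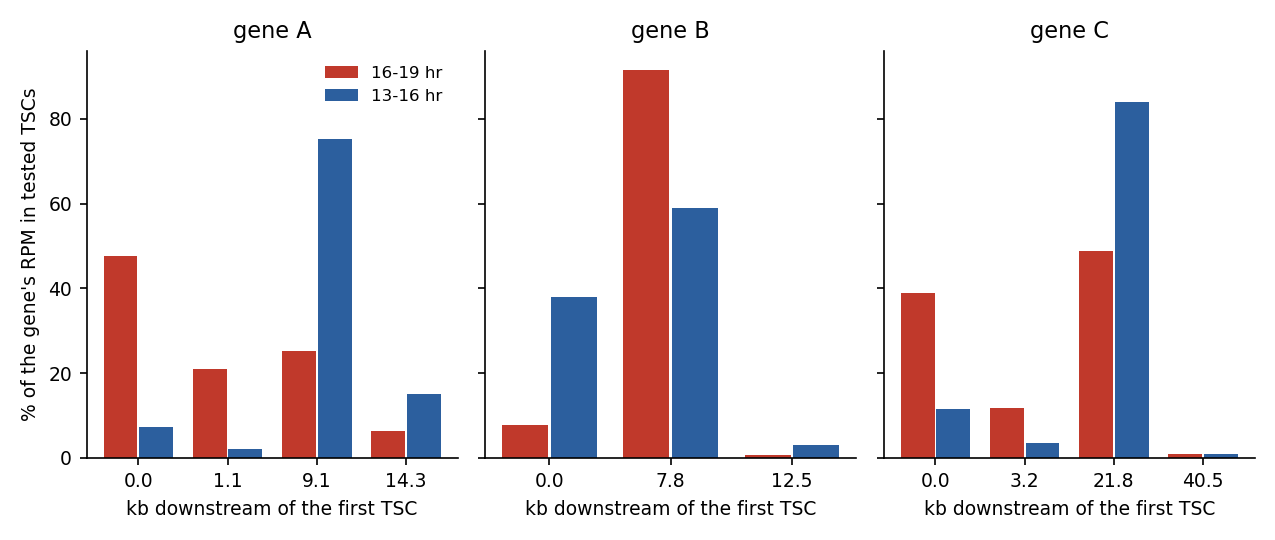
Share of a gene's mean RPM in tested TSCs (y axis, percent) held by each of its TSCs, ordered by distance in kb downstream of the first TSC (x axis), at 16-19 hr (red) and 13-16 hr (blue). Gene A is the gene on scaffold_12916, gene B is FBgn0101888, and gene C the one on scaffold_13266. The first TSC of gene A holds 47.6% at 16-19 hr and 7.35% at 13-16 hr, and the TSC 7.8 kb downstream in gene B holds 91.5% and 59.0%.

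The remaining 3 genes named by the rule each had a TSC that lost nearly all its reads while the main TSC still had some. At scaffold_13340:15085009-15085043 a TSC had 8.78, 0.305 and 3.05 RPM at 16-17, 17-18 and 18-19 hr, against 177, 58.9 and 43.2 RPM at 13-14, 14-15 and 15-16 hr, and its share of the gene was 2.64% and 26.7% in the windows. A TSC at scaffold_13337:9071929-9071940 had 1.69 RPM at 16-17 hr and no read at 17-18 and 18-19 hr, against 18.2, 17.7 and 12.6 RPM. One at scaffold_13266:14431755-14431779 had 0.564 RPM at 16-17 hr and no read in the next 2 libraries, against 16.4, 22.8 and 5.80 RPM. The last pair of genes had main TSCs with means of 172 and 51.3 RPM at 16-19 hr, against 207 and 239 RPM at 13-16 hr. None of these 3 differences (diffSplice adjusted p = 0.045, 0.026 and 0.045) was called without the 13-14, 14-15, 17-18 or 18-19 hr library.

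The same test was run at the neighbouring borders, which share 3 libraries each with the comparison at 16 hr, so their counts are given side by side only. At 13-16 hr against 10-13 hr, 81 TSCs (0.932% of 8695) were higher and 94 (1.08%) lower on RPM, and 72 genes (1.2% of 5998) were higher and 95 (1.58%) lower. At 19-22 hr against 16-19 hr, 244 TSCs (3.25% of 7506) were higher and 142 (1.89%) lower, and 162 genes (2.98% of 5435) were higher and 93 (1.71%) lower. With TMM 16 TSCs were higher and 20 lower at 13 hr, and 112 higher and 183 lower at 19 hr. The gene counts with TMM were 42 higher and 32 lower at 13 hr, and 57 higher and 112 lower at 19 hr. The predominant direction thus turned with the scaling for TSCs and genes at 19 hr, and for genes but not TSCs at 13 hr. The median log2 difference of TSCs on RPM was -0.33 at 13 hr and 0.30 at 19 hr, against -0.49 at 16 hr. TSCs with a log2 difference below -3 numbered 76 at 13 hr, 150 at 16 hr and 86 at 19 hr, and those above 3 numbered 11, 9 and 21, on RPM. With TMM 64, 115 and 99 lay below -3 and 28, 33 and 11 above 3, so the order of the borders for large rises turned with the scaling. Whether the borders differ in their number of calls was not tested.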

How the data were processed

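RAMPAGE libraries of 22 hourly collections of D. ananassae embryos were deposited, and the 7-8 hr library was left out. The authors mapped reads with STAR to FlyBase assembly r1.3, called TSCs on the pooled series, and gave RPM values per TSC, and per gene for genes with an ortholog in D. melanogaster. The deposited peak list has a score column that was not used. The deposited table of smoothed gene Z-scores mixes hours and was not used. Dividing each RPM column by the value of 1 read gave whole reads for 100% of values within 0.1 read. No per-sample column of another series was found (0 columns).

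Features with at least 10 RPM in any of the 6 libraries of 13-19 hr were tested by limma with trend on log2(RPM + 1), 16-19 hr minus 13-16 hr, with Benjamini-Hochberg adjustment over all features and a two-sided threshold of 0.05. A fold change on this scale understates the change of low features. TMM was applied to the recovered reads. As the count test on recovered reads, edgeR's quasi-likelihood test called 162 genes higher and 131 lower, and 357 TSCs higher and 225 lower. The edgeR test used the TMM factors, and DESeq2 its own scaling of the libraries. Their differences from limma on RPM therefore hold a change of scaling as well as of model. The use of TSCs within genes was tested by diffSplice. The limma fits on RPM and with TMM, edgeR, DESeq2 and diffSplice were tested on simulated reads of 3 libraries against 3. The simulated reads held no change from hour to hour within a window, and the other fits were not simulated. Libraries had 1358460 to 12409410 reads in TSCs, and 3 reads, the limit that a count of 0 allows, came to 0.242 to 2.21 RPM.

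The members and lists were chosen with earlier results of these data known. TSCs were named as the 5 with the largest rise and fall among those called, with windows that do not overlap and a mean of at least 50 RPM in the higher window, the same over unattributed TSCs, the 5 with the highest mean in each window, and the 6 genes with the largest difference between TSCs. The reference table of assembly ASM1763931v2 held none of the 19104 gene identifiers, so gene lists of tissues and processes were not used, at most 2 identifiers are printed in each direction of a comparison, and other TSCs are given by position. Alternatives were other pseudocounts (0.1 and 5 RPM), no filter, a filter of 25 RPM, TMM, edgeR, DESeq2, limma without trend, each library left out, both libraries next to 16 hr left out, and hour as a linear term. Leaving out libraries with TMM, the linear term with TMM, and 19-22 hr against 10-13 hr were added after seeing the data. The analyses used R 4.3.3 with limma 3.58.1, edgeR 4.0.16 and DESeq2 1.42.0, and Python with pandas.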

Additional observations from a re-analysis of the deposited data

How the results depend on the processing

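No paired analysis was possible because the windows are successive hours with 1 library each, so replicate numbers were given in order of time and pair nothing. With 1 library per hour, measurement error cannot be told apart from change within a window, and the counts of calls moved with the scaling and with single libraries. Genes higher at 16-19 hr numbered 117 on RPM, 179 with TMM, 478 with DESeq2, 270 with hour as a linear term and 494 with that term and TMM, and 24 to 186 with each library left out. Genes lower numbered 336 on RPM, 132 with TMM, 131 with edgeR, 562 without both libraries next to 16 hr, 1178 with the linear term, and 67 to 538 with each library left out. With TMM and each library left out, 0 to 280 genes were higher and 2 to 213 lower. TSCs higher numbered 238 on RPM, 140 without a filter, 380 with TMM, 808 with DESeq2, 476 with the linear term, 808 with that term and TMM, and 46 to 340 with each library left out. TSCs lower numbered 544 on RPM, 353 without a filter, 233 with TMM, 225 with edgeR, 907 without both libraries next to 16 hr, 1558 with the linear term, and 121 to 798 with each library left out. With TMM and each library left out, 0 to 506 TSCs were higher and 0 to 325 lower. The cause of these moves was not tested. The test of TSCs within genes called 52 TSCs, 26 among TSCs of at least 25 RPM, where fewer are tested, and 1 to 57 with each library left out. At 13-16 hr against 10-13 hr, a filter of 25 RPM gave 46 genes higher, 62 lower and 57 TSCs lower, and TMM gave 42 genes higher, 32 lower, 16 TSCs higher and 20 lower. At 19-22 hr against 16-19 hr, TMM gave 57 genes and 112 TSCs higher. The 5 largest rises and 5 largest falls among TSCs, and those among unattributed TSCs, kept their direction in every fit run on them. The 5 largest falls had log2 changes of -8.01 to -4.71 and were not called in 12 of 105 fits, and the 5 largest rises had 2.63 to 4.82 and were not called in 25 of 105. Alternatives for gene lists were not run.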
